A study of Mus musculus with 5 samples.

Results

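Collagens are matrix proteins built from chains that are each encoded by a gene of their own, and they were examined here as 44 of the 20365 gene names on which the SLAMseq libraries of cardiac fibroblasts (CF) were counted. The members are all genes named as a collagen alpha chain. Each was represented by 1 interval of the counted 3′ UTR set, the interval with the highest mean deposited CPM in the labeled libraries. They were grouped by the class of collagen they form, which gave 11 fibrillar, 6 basement membrane, 6 beaded filament and 9 FACIT chains (fibril-associated collagens with interrupted helices), and 12 chains of other kinds. CF came from hearts of healthy adult male C57Bl/6J wildtype mice and were grown to confluency after isolation by collagenase perfusion. The labeled group (3 libraries) was kept for 12 h with 0.1 mM 4-thiouridine (S4U), a uridine analog that enters RNA made during that time. The unlabeled group (2 libraries) was kept in parallel for the same time without S4U, and RNA of both groups was alkylated. Both groups are cultures without injury and without a factor added to the culture medium, so they describe CF on plastic. The cell culture medium in the study's methods contains dialyzed fetal bovine serum. A labeled base is read as C in place of T, and the T>C conversion rate is the share of covered T positions read as C, given here in percent.

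In the connective tissue of the heart, fibrillar collagens form the load-bearing fibrils, whereas FACIT chains attach to the surface of such fibrils. Basement membrane collagen IV forms sheets under endothelium and around muscle cells, and beaded filament collagen VI forms fine filaments next to cells. Fibroblasts are known as the main source of the fibrillar chains in the heart. With a steady pool of RNA, a low T>C rate is what a transcript with slow replacement gives, and a high rate is what fast replacement gives.

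Counted reads came to 1576048, 1194971 and 506045 for labeled replicates 1, 2 and 3, whereas unlabeled replicates 1 and 2 had 1842863 and 996053, so labeled replicate 3 was the shallowest. Collagen chains took 4.38%, 4.45% and 4.72% of them in the labeled libraries and 3.47% and 3.96% in the unlabeled ones. A set of 10 fibroblast markers reached a summed level of 9537 to 10033 reads per 1000000 counted reads (CPM) in the labeled libraries and 9464 to 9966 CPM in the unlabeled ones, and each of the 10 was detected in every library. The summed level of 8 cardiomyocyte markers was at most 9.04 CPM in any library. Endothelial markers were low but not absent, with *Cdh5* at 46.3, 51.0 and 31.6 CPM and *Pecam1* at 5.71, 27.6 and 17.8 CPM in the labeled libraries, and *Vwf* at 0.

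Reads were spread very unevenly over the chains. Of the 44 genes, 36 had a read in some library, 25 had reads in every labeled library, and 17 were well covered, meaning that each labeled library held 1000 or more covered T positions. These 17 chains held at least 99.66% of the collagen reads of each labeled library. They comprised the fibrillar chains *Col1a1*, *Col1a2*, *Col3a1*, *Col5a1*, *Col5a2* and *Col11a1*, the basement membrane chains *Col4a1*, *Col4a2* and *Col4a5*, and the beaded filament chains *Col6a1*, *Col6a2* and *Col6a3*. The FACIT chains *Col12a1*, *Col14a1* and *Col16a1*, the network chain *Col8a1* and the multiplexin chain *Col15a1* completed them. Levels fell by a clear step after this group, from 123 CPM for *Col15a1* to 20.6 CPM for *Col27a1*, the next chain. A bulk level cannot tell fewer cells of a type from less RNA per cell. A single read per transcript end is counted in these libraries, so levels were not divided by length, and values compare intervals rather than whole transcripts.

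The 3 chains of collagens I and III came first. *Col1a1* had 13293, 12755 and 13058 CPM in labeled replicates 1, 2 and 3, *Col1a2* had 9299, 11117 and 12728 CPM, and *Col3a1* had 8381, 7523 and 9104 CPM. Together they made up 70.7%, 70.6% and 73.9% of collagen reads in the labeled libraries. The remaining 8 fibrillar chains added 6.51% ± 1.00 (SD, n = 3), so less than the basement membrane chains at 12.0% ± 1.36. Beaded filament chains held 2.15% ± 0.910 and FACIT chains 1.76% ± 0.124, and these 2 shares lay within the spread of the beaded class. The network class held 5.53% ± 1.70, nearly all of it *Col8a1*.

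Basement membrane and network chains followed directly on collagens I and III. *Col4a1*, a main chain of the common collagen IV network, had 3798, 4378 and 4142 CPM across labeled replicates 1 to 3 (4106 ± 291 CPM, SD, n = 3), with 2913 and 3514 CPM unlabeled. *Col8a1*, a short network-forming chain, had 3266, 2015 and 2130.2 CPM and 3079 and 2376 CPM in the same libraries. Its first labeled library lay above the other two, and the ranges of the 2 groups overlapped. *Col5a2*, a chain of collagen V that sits inside collagen I fibrils, had 2608, 1847 and 1717 CPM with 2150.5 and 1739.9 CPM unlabeled. *Col4a2*, the partner of *Col4a1*, had 786, 1421 and 1022 CPM with 644 and 1313 CPM unlabeled. For *Col4a2*, each library numbered 1 was lower than the library numbered 2 of its group.

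The remaining well-covered chains had mean levels between 123 and 671 CPM. In order these were *Col5a1* at 671 ± 98.7 CPM, *Col6a1* at 526 ± 322 CPM, *Col14a1* at 376 ± 81.7 CPM and *Col6a2* at 300.1 ± 182 CPM. *Col12a1* followed at 226 ± 51.1 CPM, *Col4a5* at 213 ± 4.45 CPM, *Col16a1* at 192 ± 45.7 CPM, *Col11a1* at 158 ± 28.4 CPM, *Col6a3* at 147 ± 77.8 CPM and *Col15a1* at 123 ± 15.4 CPM. Each chain differed from its neighbour in this order by less than the larger of their 2 SDs. The median level over the members with a read was 23.9 ± 7.16 CPM for the fibrillar chains beyond collagens I and III, 114 ± 4.07 CPM for basement membrane, 211 ± 70.0 CPM for beaded filament and 1.62 ± 1.59 CPM for FACIT chains. These medians turn on the scarce members. In the FACIT class 4 of the 7 members with a read had at most 5 reads in any library, and over the well-covered members alone the medians were 671, 1076, 312 and 238 CPM for the fibrillar, basement membrane, beaded filament and FACIT chains, so that basement membrane and not beaded filament chains came first. 

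**Figure D1:**
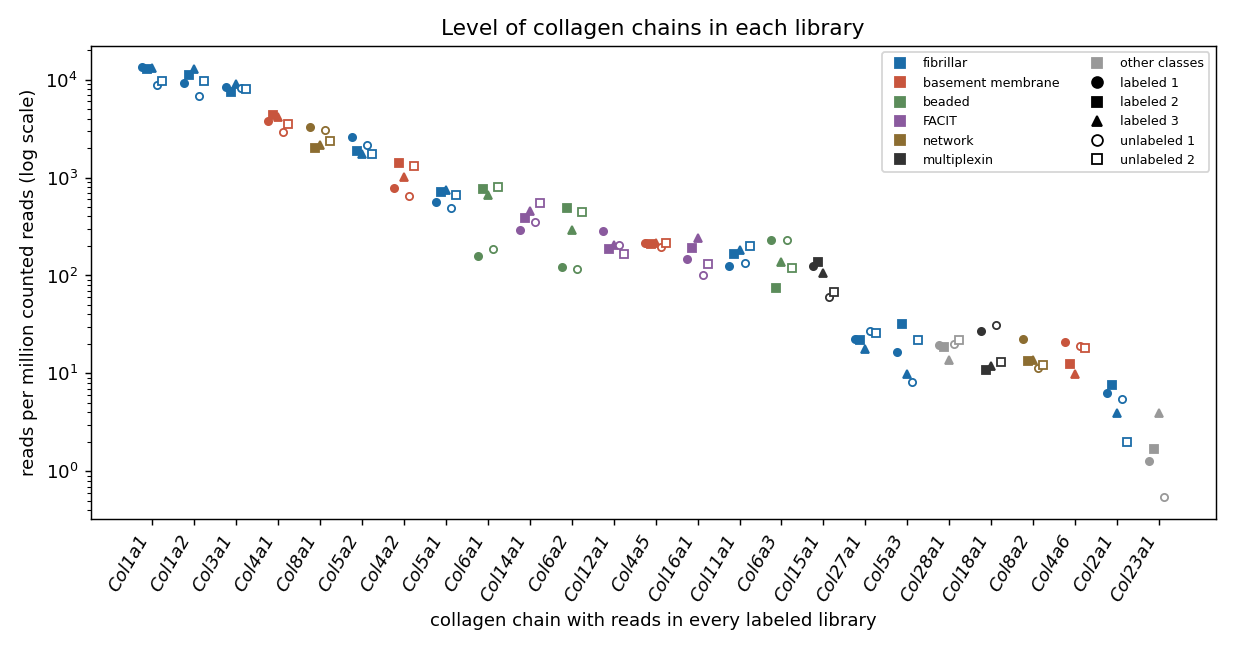
Level of each collagen chain with reads in every labeled library, in CPM relative to counted reads on a log axis, with 1 point per library (filled: labeled, open: unlabeled) and colour by class. *Col1a1*, *Col1a2* and *Col3a1* lie highest, the chains fall by a step after *Col15a1*, and *Col6a1* and *Col6a2* have both libraries numbered 1 below the other three.

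No read was counted in any library for 8 genes. They were *Col10a1*, a chain of growth plate cartilage, *Col11a2* and *Col9a1*, which are chains of cartilage fibrils, *Col17a1*, a chain of epithelial attachment, and *Col22a1*, *Col25a1*, *Col6a4* and *Col6a6*. The *Col9a1* interval was only 15 bases and the *Col6a6* interval 80 bases long. The *Col6a4* interval lay outside the annotated 3′ UTR, 376 bases from the nearest exon end. The zeros of these chains carry little. *Col2a1*, the chain of cartilage collagen, had 10, 9 and 2 reads in the labeled libraries. In the basement membrane class, *Col4a3* and *Col4a4*, which build the collagen IV of the kidney filter, had at most 3 and 22 reads in any library.

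T>C conversion rates of the collagen chains were low among the genes of these cells. Over the 2121 genes that reached this coverage the median rate was 3.88%, with quartiles of 3.43% and 4.23%. All 17 collagen chains of this depth lay below the median, 15 of them (88.2%) below the lower quartile and 11 below the 10th percentile of 2.32%. Without *Col1a1*, *Col1a2* and *Col3a1*, 12 of 14 chains lay below the lower quartile. The median over the chains was 1.95%, 2.19% and 2.31% in labeled replicates 1, 2 and 3, against 3.78%, 3.90% and 3.88% for the genes. Within the collagens the rate spanned a 4.89-fold range, from 0.752% ± 0.0629 for *Col14a1* to 3.68% ± 0.351 for *Col15a1* (SD, n = 3).

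Rates were higher with S4U for every chain that could be tested. A beta-binomial likelihood-ratio test of the conversion counts found a higher rate in the labeled group for 24 of 24 collagen genes, where 94.6% of all 19240 intervals tested were called. All 17 well-covered chains had every labeled library above both unlabeled ones, as had 2120 of the 2121 genes (100% when rounded), so neither count sets collagens apart. The highest rate of any of these chains in an unlabeled library was 0.173%, for *Col1a2*.

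Among the fibrillar chains beyond collagens I and III, those of collagens V and XI could be measured. *Col5a1*, the chain with which collagen V is thought to limit fibril width, had rates of 2.50%, 2.69% and 2.85% in labeled replicates 1, 2 and 3, with 0.107% and 0.0711% unlabeled. *Col5a2* had rates of 2.0%, 2.23% and 2.31%, with 0.0994% and 0.0410% unlabeled. In each labeled library *Col5a2* was the lower, with a difference (*Col5a2* minus *Col5a1*) of -0.497 ± 0.0378 percentage points (SD, n = 3), while its reads were 4.66, 2.61 and 2.30 times those of *Col5a1*. *Col11a1*, a chain that can join collagen V in the same fibrils, had 1.92%, 1.55% and 2.75%, with labeled replicate 3 apart from the other two. Its Wilson 95% interval there ran from 2.14% to 3.53%, resting on 2143 covered T positions (such intervals cover counting error only). The counted interval of *Col11a1* overlaps *Gm65490* on the other strand. For comparison, *Col1a1* had 2.59% ± 0.199, *Col1a2* 2.0% ± 0.0741 and *Col3a1* 1.51% ± 0.143, so the other fibrillar chains fell within or just above the range of these 3. *Col5a3* and *Col27a1* had rates of 7.33% ± 3.28 and 4.28% ± 1.56, with as few as 72 and 219 covered T positions in a library, and their place in the order is not known at this depth.

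The basement membrane chains differed in rate among themselves beyond their spread. *Col4a1* had rates of 2.67%, 2.75% and 2.67% in labeled replicates 1, 2 and 3, with 0.152% and 0.0825% unlabeled. *Col4a2* had 1.75%, 2.19% and 1.55%, with 0.0116% and 0.0168% unlabeled. *Col4a5*, which forms the collagen IV of kidney, lung and smooth muscle basement membranes, had 1.32%, 1.37% and 1.30%, with 0.156% and 0.0468% unlabeled. The order *Col4a1*, *Col4a2*, *Col4a5* held in all 3 labeled libraries. *Col4a1* exceeded *Col4a2* by 0.868 ± 0.287 and *Col4a5* by 1.37 ± 0.0128 percentage points (SD, n = 3), and the second difference was nearly the same in each library. With 3 libraries compared in pairs, an exact two-sided test cannot give a p below 0.25.

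*Col4a1* and *Col4a2* are neighbours that are read in opposite directions from gene starts 355 bases apart on chromosome 8, and collagen IV of most tissues takes up more of the first chain than of the second. The reads of *Col4a1* were 4.83, 3.08 and 4.05 times those of *Col4a2* in the labeled libraries and 4.52 and 2.68 times in the unlabeled ones. *Col4a5* and *Col4a6* are arranged in the same way on chromosome X, with starts 1282 bases apart, and the reads of *Col4a5* were 10.3, 16.5 and 21.8 times those of *Col4a6*, which had 33, 15 and 5 reads. The rate of *Col4a6*, 1.11% ± 0.128, was below that of *Col4a5* in 3 of 3 libraries, but its Wilson interval in labeled replicate 3 reached from 0.190% to 5.84%. The counted interval of *Col4a1* overlaps *Gm15418* on the other strand, and whether the counting used strand is not given in the sources used here. Endothelial cells also make collagen IV, and the CF isolation in the study's methods includes magnetic removal of CD31+ and CD45+ cells. The 10 endothelial markers summed to 547 to 827 CPM in the labeled and 495 to 729 CPM in the unlabeled libraries, of which *Eng*, also made by fibroblasts, was the largest part. Without *Eng* they summed to 162, 269 and 166 CPM in the labeled libraries, and their part in the collagen IV values was not tested.

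The beaded filament chains held 2 of the 3 lowest rates. *Col6a1* had rates of 0.943%, 0.897% and 0.937% in labeled replicates 1, 2 and 3 and *Col6a2* of 1.21%, 1.18% and 0.479%, so the pair did not differ beyond its spread (-0.0317 ± 0.424 percentage points for *Col6a1* minus *Col6a2*). Only 1.23% of the 2121 genes had a lower rate than *Col6a1*. *Col6a3*, the long chain that joins these 2 in collagen VI, had 2.17%, 2.20% and 2.35%, higher than *Col6a1* by 1.32 ± 0.0915 percentage points and in 3 of 3 libraries. *Col6a3* showed 0 conversions among 11637 covered T positions in unlabeled replicate 1, which allows a rate of up to 0.0258% (counting error only). The *Col6a2* value of labeled replicate 3 stood below the other two, with a Wilson 95% interval from 0.286% to 0.803%. The genes of *Col6a1* and *Col6a2* lie on chromosome 10 in the same direction, at chr10:76544626-76545392 and chr10:76431590-76432046 for the counted intervals (GRCm39), and *Col6a3* lies on chromosome 1 at chr1:90694582-90695313. All 3 intervals are 3′ UTR within the last exon.

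Levels of these 3 chains varied widely between libraries, while the rates of *Col6a1* and *Col6a3* did not. *Col6a1* had 158, 755 and 666 CPM across labeled replicates 1 to 3, and the 2 unlabeled libraries had 186 and 798 CPM. *Col6a2* had 121, 485 and 294 CPM and 116 and 443 CPM, and *Col6a3* had 229, 74.5 and 136 CPM and 231 and 118 CPM. Both libraries numbered 1 were low in *Col6a1* and *Col6a2* and high in *Col6a3*, whichever group they belonged to. Labeled replicate 2 had 4.78 times the *Col6a1* level of labeled replicate 1 and unlabeled replicate 2 had 4.29 times that of unlabeled replicate 1. For *Col6a3* these ratios were 0.325 and 0.512. A ratio of at least 4 was found in 1.27% of the 2121 genes in the labeled and 2.03% in the unlabeled group. As a share of the reads of the 3 chains, *Col6a3* took 45.1%, 5.67% and 12.4% in labeled replicates 1, 2 and 3. The *Col6a1* rate of labeled replicate 1, 0.943%, was nonetheless close to the other two.

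**Figure D2:**
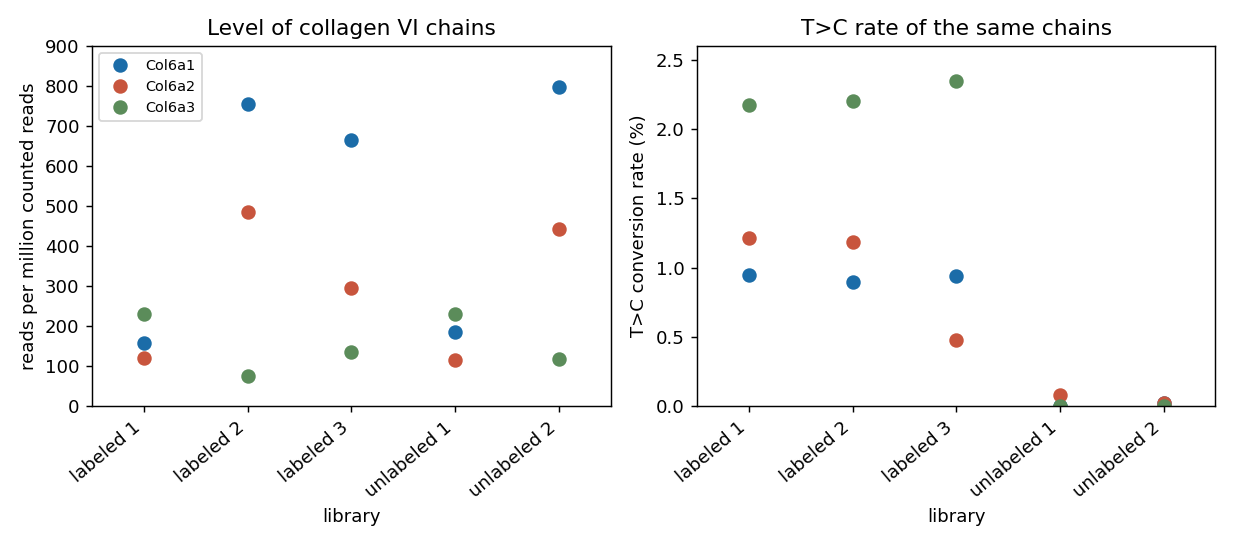
Level in CPM relative to counted reads (left) and T>C conversion rate in percent (right) of *Col6a1*, *Col6a2* and *Col6a3* in each of the 5 libraries. *Col6a1* and *Col6a2* are low and *Col6a3* is high in both libraries numbered 1, whereas the labeled rates of *Col6a1* and *Col6a3* stay apart by a similar distance in all 3 libraries.

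This pattern was not confined to collagen VI. Of the 17 chains, 15 had the replicate 2 to replicate 1 ratio on the same side of 1 in both groups, 10 above and 5 below, as had 84.5% of the 2121 genes, so the count does not set collagens apart. The ratio was 1.81 and 2.04 for *Col4a2* and 0.617 and 0.772 for *Col8a1*. Across the 17 chains the ratio of the labeled pair rose with GC content of the interval (Spearman's rho 0.439) and so did that of the unlabeled pair (0.471). Across 9805 genes the same rho was 0.371 and 0.320. These are descriptions across genes, which share libraries and are not independent, and the part of GC content in the level differences was not tested.

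FACIT chains spanned the widest range of rates of the 4 classes. *Col12a1*, a chain with long arms that stand off the fibril and is known from tissues under load, had rates of 2.43%, 2.52% and 2.64% in labeled replicates 1, 2 and 3. *Col14a1*, its closest relative, had 0.808%, 0.765% and 0.684%, the lowest mean rate of all 17 chains and above only 0.754% of the 2121 genes. The difference was 1.77 ± 0.167 percentage points (SD, n = 3), and the 2 ranges were far apart. *Col16a1* had 1.30%, 1.86% and 1.14%, between the other two in each labeled library. No conversion of *Col12a1* was seen among 9327 and 3939 covered T positions in the unlabeled libraries, which allows rates of up to 0.0322% and 0.0762%.

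The order of *Col12a1* and *Col14a1* in level was the reverse of that in rate. *Col14a1* had 289, 389 and 451 CPM and *Col12a1* 284, 187 and 206 CPM in labeled replicates 1, 2 and 3, so *Col14a1* was 1.02, 2.08 and 2.19 times as high. A separate upstream interval of *Col14a1* that does not overlap the one used, chr15:55382565-55383085, had 97.9 ± 24.0 CPM and rates of 0.816%, 0.892% and 2.32%. The values of labeled replicates 1 and 2 were close to those of the interval used, and that of replicate 3, from 1467 covered T positions, was higher. The *Col16a1* interval, chr4:129992886-129993070, is only 185 bases long. The other 6 FACIT members, among them the 3 chains of collagen IX, had at most 5 reads in any library.

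*Col8a1* and *Col15a1* were the only well-covered collagen chains with mean rates inside the middle range of genes. *Col8a1* had rates of 3.49%, 3.61% and 3.64%, above 31.1% of the 2121 genes. *Col15a1*, a basement membrane zone chain that carries sugar chains, had 4.06%, 3.60% and 3.38%, above 36.9% of them. Both exceeded every other well-covered collagen chain in each labeled library. Their partners in class were scarce. *Col8a2* had 35, 16 and 7 reads against 5147, 2408 and 1078 for *Col8a1*, and *Col18a1*, the precursor of endostatin, had 43, 13 and 6 reads with a rate of 1.83% ± 0.488.

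**Figure D3:**
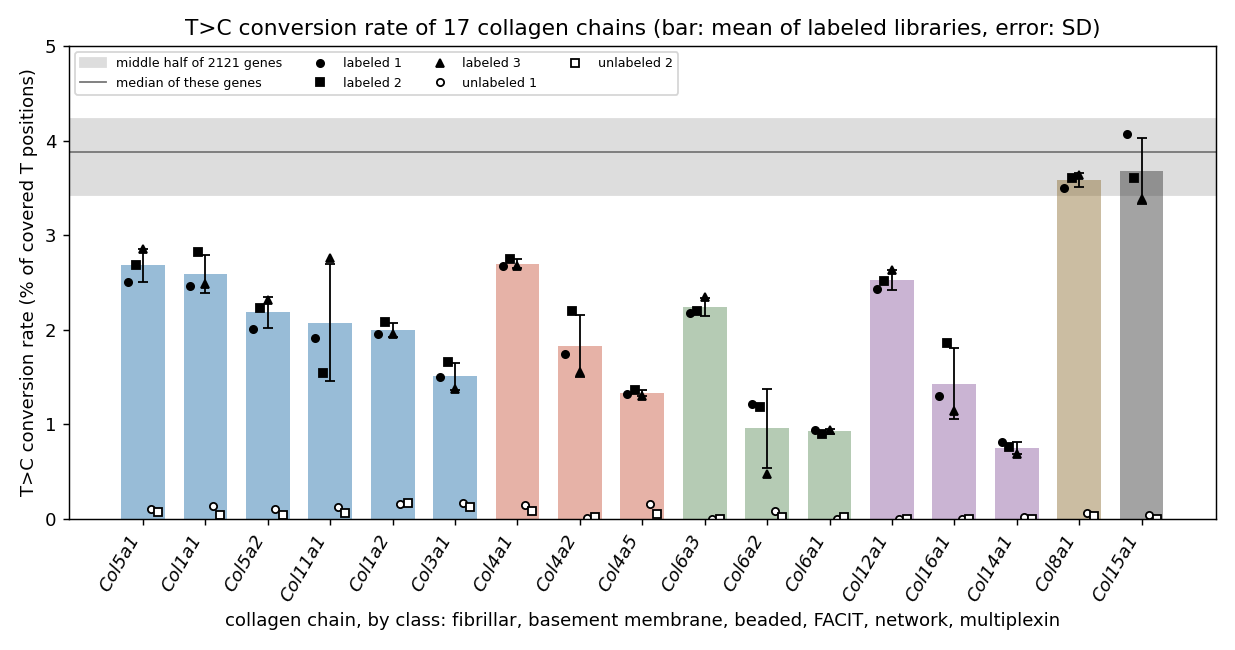
T>C conversion rate in percent of the 17 well-covered collagen chains, ordered by class. Bars and error bars are the mean and SD of the 3 labeled libraries, filled points are labeled and open points unlabeled libraries, and the grey band holds the middle of 2121 genes from 3.43% to 4.23%. Only *Col8a1* and *Col15a1* have means in the band, and *Col14a1*, *Col6a1* and *Col6a2* lie lowest.

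Set out by class, the median rate was highest for the fibrillar chains beyond collagens I and III, at 2.0%, 2.23% and 2.75% in labeled replicates 1, 2 and 3 (2.33% ± 0.384, SD, n = 3). Basement membrane chains followed at 1.75%, 2.19% and 1.55% (1.83% ± 0.329), then FACIT chains at 1.30%, 1.86% and 1.14% (1.43% ± 0.377) and beaded filament chains at 1.21%, 1.18% and 0.937% (1.11% ± 0.151). Each median rests on 3 chains and is the value of the middle one. In every labeled library this was *Col4a2* in the basement membrane class and *Col16a1* in the FACIT class. The middle fibrillar chain was *Col5a2* in labeled replicates 1 and 2 and *Col11a1* in replicate 3. The middle beaded chain was *Col6a2* in labeled replicates 1 and 2 and *Col6a1* in replicate 3, so these 2 SDs mix chains. This order held in 3 of 3 libraries for each of the 6 pairs of classes, the largest difference being 1.22 ± 0.533 percentage points for fibrillar minus beaded. The basement membrane median exceeded the FACIT median by 0.399 ± 0.0574 percentage points, which is *Col4a2* minus *Col16a1*. The FACIT chain *Col12a1*, at 2.53%, lay above both *Col4a2* and *Col4a5*. The difference between fibrillar and basement membrane chains, 0.499 ± 0.619, and that between beaded and FACIT chains, -0.321 ± 0.312, were about as large as their spread. With the unlabeled rate subtracted, basement membrane chains lay above fibrillar chains in labeled replicate 2, so the order of that pair turned there. Exact two-sided tests over 3 libraries cannot go below a p of 0.25.

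On means over the 3 labeled libraries, chains in 3 of the 4 classes differed by more than any 2 class medians did (at most 1.22 ± 0.533 percentage points). Highest and lowest chains spread more than medians by construction, so this comparison cannot weigh class against chain. The highest and lowest chain lay 1.37 percentage points apart in the basement membrane, 1.32 in the beaded filament and 1.77 in the FACIT class. In the fibrillar class beyond collagens I and III they lay 0.607 apart. For basement membrane chains this did not hold in labeled replicate 3. There the medians of fibrillar and beaded chains differed by 1.82 percentage points, and *Col4a1* and *Col4a5* by 1.37. The highest rate in a class was 1.29 times the lowest for the fibrillar chains beyond collagens I and III, 2.03 times for basement membrane, 2.42 times for beaded filament and 3.36 times for FACIT chains. With conversions and covered T positions summed over the members of a class, which gives abundant chains more weight, the order changed. Basement membrane chains were then at 2.45% ± 0.0830 and fibrillar chains beyond collagens I and III at 2.31% ± 0.210, because *Col4a1* holds most reads of its class. FACIT chains were at 1.39% ± 0.169 and beaded filament chains at 1.30% ± 0.379.

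Rate and level showed little relation across the chains. Spearman's rho between them was 0.103 over the 17 chains and -0.206 over the 2121 genes. Chains of like level could differ in rate, such as *Col6a3* and *Col4a5* at 147 and 213 CPM with rates of 2.24% ± 0.0946 and 1.33% ± 0.0339. With interval length the rate had a rho of 0.593 over the chains and 0.211 over the genes. The order of chains was similar between libraries, with rho from 0.846 to 0.958 between the rates of labeled libraries. All of these are descriptions across genes of the same libraries.

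**Figure D4:**
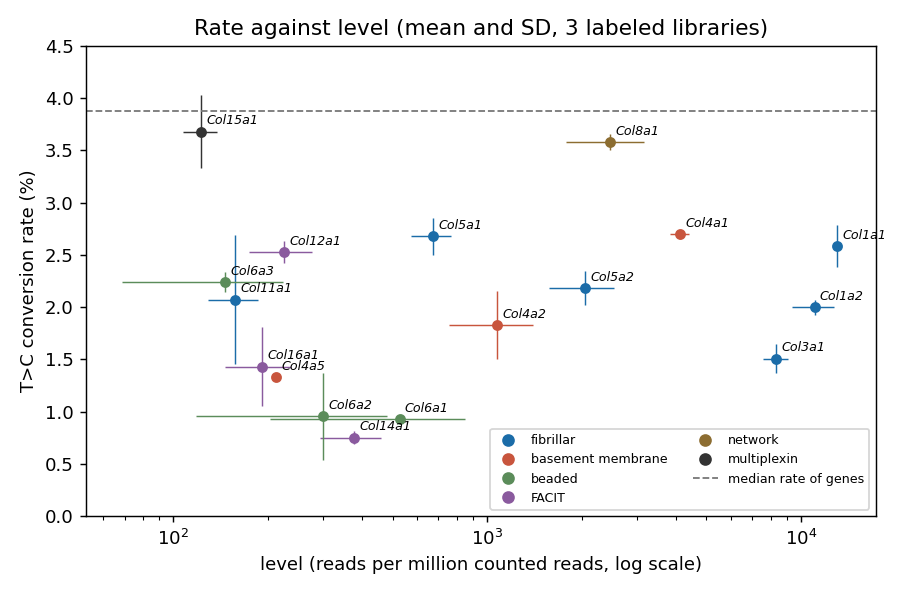
T>C conversion rate in percent against level in CPM relative to counted reads (log axis) for the 17 well-covered collagen chains, with points at the mean and bars at the SD of the 3 labeled libraries and colour by class. The chains show no trend of rate with level (rho 0.103), and each lies below the dashed line at the median rate of 2121 genes.

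The share of reads that carried at least 1 conversion gave the same picture. It had a median of 26.5% over the 17 chains and of 52.7% over the genes. *Col15a1* had 54.3%, 53.7% and 50% of reads with a conversion, and *Col6a1* had 9.64%, 12.9% and 12.8%. Across the chains rho between share and rate was 0.926, and both come from the same reads.

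Collagen transcripts are well-known targets of the miR-29 family, small RNAs that pair through bases 2 to 8 with the 3′ UTR and lower the transcript. The 3 mature mouse forms (RefSeq, GRCm38.p6) share 1 seed, shown in capitals:
mmu-miR-29a-3p: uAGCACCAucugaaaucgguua
mmu-miR-29b-3p: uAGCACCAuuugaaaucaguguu
mmu-miR-29c-3p: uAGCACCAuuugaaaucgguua

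The counted intervals were searched on the transcript strand for TGGTGCT, the letters that pair with this seed. The match was present in 13 of the 17 well-covered chains (76.5%), with 20 matches in all or 0.929 per kb. Of 1467 intervals of genes past the same depth and within the same range of lengths, 11.7% held it, at 0.111 per kb. Of the 36 collagen intervals in that range of lengths, read or not, 55.6% held it. *Col5a1* had 4 matches, *Col4a5* had 3, and *Col4a2* and *Col11a1* had 2 each. The letters were not in the counted windows of *Col1a2*, *Col6a1*, *Col12a1* and *Col14a1*. Windows of 22 bases ending 1 base past the match are shown for *Col5a1* and *Col4a5*, which had the most, for the collagen IV neighbours, for the 2 collagen VI chains with a match, and for *Col15a1* and *Col16a1*, the chains with the highest rate and the shortest interval (GRCm39, match in capitals):
Col5a1 match 1, chr2:27928002-27928023 (+ strand): taactatgaacattTGGTGCTg
Col5a1 match 2, chr2:27928032-27928053 (+ strand): acacttgtctcttgTGGTGCTa
Col5a1 match 3, chr2:27928348-27928369 (+ strand): ttgctgaatgtttgTGGTGCTa
Col5a1 match 4, chr2:27928720-27928741 (+ strand): acagagagtcactcTGGTGCTt
Col4a5 match 1, chrX:140471235-140471256 (+ strand): actgctcccaccaaTGGTGCTa
Col4a5 match 2, chrX:140471516-140471537 (+ strand): agtattctttttcaTGGTGCTa
Col4a5 match 3, chrX:140471939-140471960 (+ strand): aattcttattattcTGGTGCTa
Col4a1 match 1, chr8:11249761-11249782 (- strand): ccaccgtcacaacaTGGTGCTa
Col4a2 match 1, chr8:11498345-11498366 (+ strand): tgggaaggccacgtTGGTGCTt
Col4a2 match 2, chr8:11498516-11498537 (+ strand): caccacacccagctTGGTGCTt
Col6a2 match 1, chr10:76432004-76432025 (- strand): ctccatcccatctgTGGTGCTa
Col6a3 match 1, chr1:90695133-90695154 (- strand): gtgacctgtcaataTGGTGCTa
Col15a1 match 1, chr4:47312486-47312507 (+ strand): tccaatccacatatTGGTGCTa
Col16a1 match 1, chr4:129993047-129993068 (+ strand): ccatggggttccccTGGTGCTg

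The match of *Col16a1* ends 3 bases before the end of its interval, and those of *Col4a1*, *Col4a2* and *Col6a2* nearest the start begin 33, 43 and 36 bases into theirs. The share of genes with a match rose with length, from 3.70% of those under 500 bases to 23.6% of those from 2000 to below 3000 bases, the longest range compared. The share of collagen intervals was higher in each length range. Chains with the match had a median rate of 2.18% (range 0.958% to 3.68%, 13 chains) and those without it of 1.46% (0.752% to 2.53%, 4 chains), so the ranges overlapped. Genes with and without the match had medians of 3.84% and 3.86%. The miR-29 RNAs were not measured here, and a match is a description of the letters, not of binding. Of other 3′ UTR motifs, ATTTA was in 52.9% of the collagen and 76.5% of the gene intervals, and AATAAA in the last 50 bases of 82.4% and 70.2%.

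**Figure D5:**
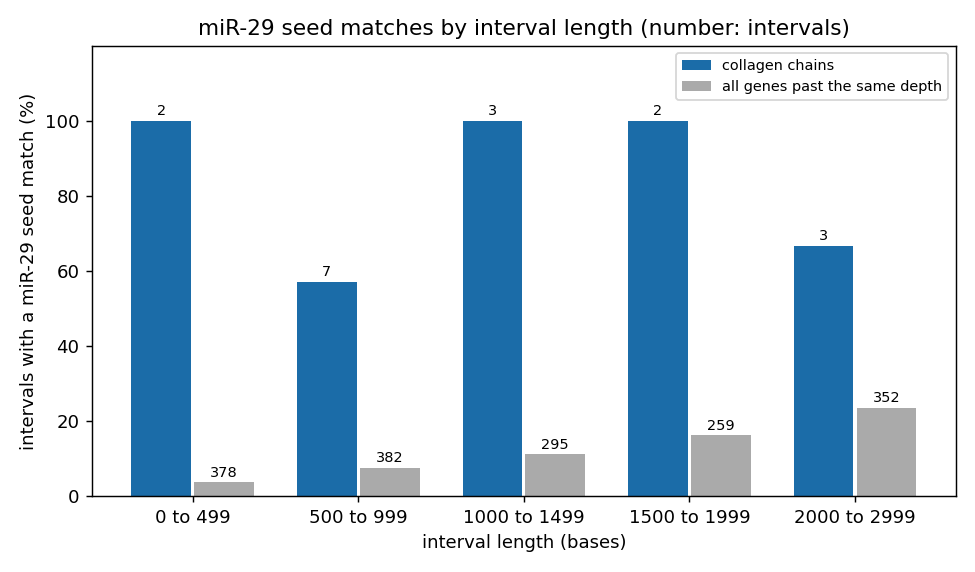
Percent of counted intervals with a miR-29 seed match, by interval length in bases, for the 17 well-covered collagen chains (blue) and genes past the same depth with intervals under 3000 bases (grey, collagens included), with the number of intervals over each bar. Between 57.1% and 100% of the collagen intervals hold a match in the 5 length ranges, against 3.70% to 23.6% of the gene intervals.

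Whether reads of the chains differed with S4U depended on the fit. Of 24 chains that passed edgeR's filter on low counts, 0 were called higher and 0 lower at an adjusted p below 0.05, as for all 9807 genes (0.0% called in either direction). At an unadjusted p below 0.05, 3 chains passed as higher and 1, *Col4a4*, as lower, where 2.84% of genes passed as higher and 3.12% as lower. DESeq2 called 0 of 36 chains, where it called 0.063% of genes higher and 0.049% lower. With the replicate number as a block, edgeR called 3 of the 24 chains higher (*Col15a1*, *Col1a1* and *Col16a1*) and 0 lower, where 5.38% of genes were called higher and 6.29% lower. That fit compares within the 2 numbers that both groups share, so labeled replicate 3 adds nothing to it. The chain with the smallest p was *Col15a1*, with 125, 137 and 107 CPM across labeled replicates 1 to 3, and the 2 unlabeled libraries had 59.7 and 68.3 CPM. Its log2 fold change was 1.02 (SE 0.27) with an adjusted p of 0.599 by edgeR's quasi-likelihood test (4.93e-07 with the block), although all labeled libraries lay above the unlabeled ones. *Col1a1* (8785 and 9660.1 CPM unlabeled), *Col4a1*, *Col16a1* and *Col8a2* did not overlap between groups either and were higher in labeled libraries, which makes 5 of the 24 chains, where 8.2% of genes did so. *Col27a1*, *Col28a1* and *Col4a4* lay lower in every labeled library, where 13.1% of genes did so. *Col4a4* had 7, 4 and 0 reads labeled and 22 and 10 reads unlabeled. Its log2 fold change was -1.72 (SE 0.70), with an adjusted p of 0.810 by edgeR (0.0529 with the block). *Col27a1* and *Col28a1* had log2 fold changes of -0.28 and -0.18. That of *Col28a1* was -0.30 without unlabeled replicate 1, -0.07 without unlabeled replicate 2 and -0.08 without labeled replicate 3. The log2 fold changes were 0.57 (SE 0.23) for *Col1a1*, 0.80 (SE 0.32) for *Col16a1* and 0.43 (SE 0.25) for *Col4a1* by edgeR. Their adjusted p by edgeR was 0.810, 0.810 and 0.962 (0.00605, 0.00728 and 0.0598 with the block). For *Col4a1* the log2 fold change was 0.25 without unlabeled replicate 1 and 0.62 without unlabeled replicate 2. Over the tested chains the median log2 fold change was 0.16, against 0.02 over all genes, with 15 chains above 0 and 9 below. Smooth muscle and pericyte markers had a summed level of 1047 to 2492 CPM in the labeled and 557 to 1053 CPM in the unlabeled libraries, ranges that overlapped, although labeled replicates 1 and 2 each lay above the unlabeled library of the same number. The edgeR test called 0 of the 4 that were tested, whose median log2 fold change was 1.27. *Tagln* had 468, 517 and 777 CPM in labeled replicates 1, 2 and 3 and 164 and 211 CPM unlabeled, with no overlap (log2 fold change 1.73), and *Cnn1* did not overlap either (1.35). *Notch3* went the other way, with a log2 fold change of -0.46 and overlapping groups, and *Abcc9*, not tested, had 2.54, 1.67 and 1.98 CPM labeled and 3.26 and 11.04 CPM unlabeled. Most of the sum was *Acta2* and *Tagln*, *Myh11* had 0 reads in the labeled libraries, and the part of these cells in the collagen values was not tested. The study's methods give 3 CF preparations for SLAMseq, but the sources do not say which libraries share one, so p-values measure the spread between these libraries.

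Genes that modify, fold, cut and cross-link collagen had a median rate between that of the chains and that of all genes. Of a list of 40 such genes, 26 were well covered, with a median rate of 2.84%. Of these, 18 lay below the lower quartile of genes. Low rates were also found among the 10 fibroblast markers, all well covered, with a median of 2.49% and 6 below the lower quartile. *Serpinh1*, the chaperone of procollagen, had 2.18% ± 0.170 (SD, n = 3) and *P4hb*, a subunit of prolyl hydroxylase, 2.15% ± 0.147, close to the fibrillar chains. *Pcolce*, which speeds removal of the C-propeptide, was lower at 1.04% ± 0.208. *Lox*, which cross-links fibrils, had 3.14% ± 0.233 and *Plod2*, a lysyl hydroxylase, 4.08% ± 0.275, so *Lox* lay below the lower quartile of genes and *Plod2* inside the middle range. The T>C rate was higher in the labeled group for 34 of 35 of the listed genes tested, where 95.1% of genes were called, and edgeR called a read change for 0 of 34, as for 0.0% of genes.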

How the data were processed

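SLAMseq libraries of CF from healthy mouse hearts were analysed, 3 labeled and 2 unlabeled, grouped by the submitters' labels. The authors used SLAM-DUNK 0.4.3 to map UMI-tagged 3′ end reads (mm39). UMI-tools removed duplicates, and counting used 3′ UTR intervals whose origin is not given in the sources used here. They deposited, for each interval, counts of reads, of reads with a conversion, of covered T positions and of conversions, none of them normalized. A conversion rate was deposited as a fraction, conversions over covered T positions, and is printed in percent. The deposited CPM has a denominator above the sum of counted reads, so levels were recomputed as CPM relative to the counted reads of a library. The gap differed between libraries. *Col1a1* had 1754, 1081 and 452 deposited CPM in labeled replicates 1, 2 and 3, against 13293, 12755 and 13058 CPM relative to counted reads.

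Repeated rows were used once. T content matched GRCm39 for 40380 of 40380 intervals, and coordinates count from 1. Rates were compared by a two-sided beta-binomial likelihood-ratio test on intervals with covered T positions in every library. For read counts, the quasi-likelihood test of edgeR was used with TMM factors, filterByExpr and Benjamini-Hochberg adjustment. Both were tested on simulated data. Chains covered at 1000 or more T positions in each labeled library are described one by one. Of the rest, those named with values, such as class partners and chains with few reads, were chosen after their values were seen. Alternatives were DESeq2, limma on log odds (pseudocount 0.5), other depth minimums, scalings, intervals and class summaries, the replicate number as a block, and each library left out in turn. Alternatives for single chains and pairs were added later, with the data seen. The members, classes and lists were chosen with earlier results of these data known. The versions were DESeq2 1.42.0, limma 3.58.1 and edgeR 4.0.16 in R 4.3.3, and Python 3.11.15.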

Additional observations from a re-analysis of the deposited data

How the results depend on the processing

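The read fold change was recomputed under the alternatives for the 8 chains that passed the filter of edgeR and whose groups did not overlap. It kept its direction in each. These chains were chosen for that separation, so leaving out a library could hardly turn the direction. The fold changes of the other tested chains were not compared under the alternatives. Of the 81 alternative values of counts and class medians, 64 stayed within 1.5 times the count or 1 SD of the median. The T>C rate was raised in 17 to 25 of the collagen genes tested, under other depth minimums (17 of 17 at the highest), Benjamini-Hochberg adjustment, limma, the longest interval (22 of 23) and each library left out. In leaving libraries out, 1 tested gene was not called without unlabeled replicate 1 (23 of 24), without unlabeled replicate 2 (24 of 25) and without labeled replicate 3 (25 of 26).

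With the replicate number as a block, edgeR called 3 collagen genes higher (*Col15a1*, *Col16a1* and *Col1a1*) and 0 lower, against 0 without it, where 5.38% of the genes tested were called higher and 6.29% lower. All other alternatives gave 0, including each library left out. Over those, the adjusted p was 0.414 to 1.0 for *Col15a1*, 0.509 to 1.0 for *Col1a1* and 0.423 to 1.0 for *Col16a1* by edgeR or DESeq2. The numbers are not said to mark a shared preparation and there are only 2 pairs. Deviations from group means correlated at 0.784 for the libraries numbered 1 and 0.638 for those numbered 2. With only 2 unlabeled libraries, their deviations mirror each other, and the 3 labeled deviations cancel out. Labeled replicate 3 had 0.482 with unlabeled replicate 2 and -0.482 with unlabeled replicate 1. These values follow from the others and cannot bear on pairing.

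The order of classes did turn. Basement membrane lay above fibrillar chains in labeled replicate 2 with the unlabeled rate subtracted, and in labeled replicates 1 and 2 with conversions summed over members, where beaded also lay above FACIT chains in labeled replicate 1. The median rate of basement membrane chains was 2.26% with at least 5000 covered T positions and 2.45% with conversions summed over members. That of beaded filament chains was 1.30% summed over members and 1.58% on the longest interval, and that of FACIT chains was 0.752% with at least 5000 covered T positions, which left no beaded chain in every labeled library. In deposited CPM the median level was 2.08 for fibrillar chains beyond collagens I and III, 9.60 for basement membrane, 16.5 for beaded filament and 0.187 for FACIT chains. Without labeled replicate 1 the FACIT median level was 0.837 CPM. Over members with at least 1000 covered T positions it was 671, 1076, 312 and 238 CPM for the fibrillar, basement membrane, beaded filament and FACIT classes. As a mean over members it was 419, 902 and 114 CPM for fibrillar, basement membrane and FACIT chains, and with *Col1a1*, *Col1a2* and *Col3a1* the fibrillar median was 414 CPM. By construction these settings change the members included, their weight or the scale. The cause of the turn in order with the unlabeled rate subtracted was not tested. Depth limits the rates of chains under 1000 covered T positions, and labeled replicate 3 was the shallowest library.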
